A study of Mus musculus with 5 samples.

Results

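Sites bound by Argonaute (Ago) proteins outside annotated genes were described in mouse liver at 5 stages of development. Ago HITS-CLIP crosslinks RNA to Ago with ultraviolet light in the tissue, pulls Ago down with antibodies and sequences the attached RNA. The livers came from C57BL/6 mice (C57BL/6J in the study's methods) at the embryonic stages e12.5, e15.5 and e18.5, named by days of gestation, at P7, a postnatal day, and from adults (Adult), with 1 table of miRNA seed sites, called a library here, for each stage and no labelled replicate. Antibodies to Ago2 were used at every stage, and antibodies to Ago1 were added at P7 and Adult only, so antibody and stage cannot be told apart. The liver was taken whole, and no gene was altered and no treatment was given. An entry of a table is 1 seed site in 1 cluster of overlapping reads, and it was taken as intergenic when its region label held intergenic alone and it lay on chromosomes 1 to 19 or X. This gave 569914 of 3250272 entries. A cluster was counted as intergenic when it held at least 1 such entry and was then described by those entries alone. Intergenic clusters that overlapped on the same strand between libraries were joined, which gave 114601 intergenic regions of 420958 regions of any kind. Of these, 114573 did not overlap a miRNA gene.

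Ago proteins carry miRNAs, which pair through their seed, bases 2 to 8, with target RNAs, most often in the 3′ untranslated region (3′ UTR) of an mRNA. A site outside annotated genes can lie in a transcript that the annotation lacks, in an unannotated 3′ end, in RNA made from the opposite strand of a gene, or in DNA to which reads of another, similar RNA were assigned. Sites are named by the bases that pair: a 6mer pairs with bases 2 to 7 of the miRNA, a 7mer-m8 also with base 8, a 7mer-A1 has an A across from base 1 instead, and an 8mer has both. The foetal liver makes blood cells, and the liver turns to hepatocyte functions around birth. Marker miRNAs of the cell types were read from the number that the tables list for each miRNA, taken as its reads, although the sources used here do not define that column. The hepatocyte miRNAs (miR-122-5p, miR-192-5p, miR-194-5p) held 2.36% of the summed miRNA number at e12.5, 22.99% at P7 and 23.03% at Adult. The erythroid miRNAs (miR-451a, miR-144-3p, miR-486a-5p) went from 30.03% at e12.5 to 2.41% at Adult, and the leukocyte miRNAs (miR-142a-3p, miR-223-3p, miR-150-5p) from 32.7% at e12.5 and 37.5% at e15.5 to 4.45% at Adult. The endothelial miR-126a-3p stood at 0.5998%, 0.9499%, 1.25%, 1.28% and 5.05% from e12.5 to Adult, higher at each later stage. The mesenchymal miRNAs (miR-199a-3p, miR-143-3p, miR-145a-5p) stood between 0.224% at e15.5 and 1.24% at P7. The part of these markers in the results that follow was not tested, and fewer cells of a type and less RNA per cell cannot be told apart in whole tissue.

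Of the 10 intergenic regions with the highest geometric mean over the 5 libraries of reads, scaled to the summed cluster reads of each library, 5 were short stretches of DNA that aligned to mature miRNAs, and the others were longer, 3 of them rRNA-like. The sequences of the short regions, with others named for their stage, are given first. Each genomic line is mm10 sequence, 5′ to 3′ on the strand of the cluster, with 3 bases to either side. Capitals mark bases identical to the named miRNA in an alignment with gaps. In the lines of the mature miRNAs themselves, taken from the deposited tables, capitals mark the seed.
miR-142a-3p, a miRNA of blood cells: tGTAGTGTttcctactttatgga
chr9:45628446-45628471, minus strand, antisense to Dscaml1: agaTGTAGTGTTTCCTgCTTATGtaa
chr5:147544461-147544483, minus strand, antisense to Pan3: gaaTGTTTCCTACTTATGGAtcc
chr12:11830334-11830358, plus strand, intron of the lncRNA gene Gm34237: atgGTAGTGTTgCCTACTTATGaat
chr7:61990331-61990356, minus strand, outside every gene: tgaTGTAGTGTTTCTTTTATGGAaaa
chr4:30030756-30030784, plus strand, outside every gene: gggTGTAGTGTTTCCTAtggaATGGAact
chr17:50781378-50781404, plus strand, antisense to Tbc1d5: aagGTAGTGTaTaCACTTTATGGAatt
miR-16-5p, a widely expressed miRNA: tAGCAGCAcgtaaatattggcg
chr8:100704510-100704536, minus strand, intron of the lncRNA gene Gm39232, beside miR-16-5p: acaTAGCAGCACcTgATATTGGCGcca
let-7b-5p, a let-7 miRNA of differentiated cells: tGAGGTAGtaggttgtgtggtt
chr12:100387030-100387053, plus strand, antisense to Ttc7b, beside let-7b-5p: ttaTGAGGTAGTAGGTaGgGTatt
chr5:150062113-150062139, minus strand, exon of the lncRNA gene Gm38755, beside let-7b-5p: atgTGAGGTAGaAGGaTGTGTGGTagt
The chr9 region shared 19 bases with miR-142a-3p, with 1 mismatch and 1 skipped base. The chr5 region shared 17 bases with 1 skipped base, the chr12 region 18 bases with 1 mismatch and 1 skipped base, and the chr7 region 20 bases with 3 skipped bases. The chr4 region shared 19 bases with 4 mismatches, and the chr17 region 19 with 2 mismatches and 1 skipped base. None of them was a full copy of the miRNA. All of the 995 mature miRNAs in the tables were aligned to 15 of the 20 named regions, those of at most 60 bases, scoring 1 for an identical base, -1 for a mismatch and -2 for a skipped base. The best score was higher on the strand of the cluster than on the opposite strand in 10 of the 15, and the opposite strands scored between 9 and 15. Of the 15 regions, 3 scored above 15, and the chr9 region was the only one of these aligned to miR-142a-3p. The chr5 region of miR-142a-3p scored 15 on both strands. For 5 of the 6 regions aligned to miR-142a-3p, the best opposite match was miR-142b, which matches part of the reverse complement of miR-142a-3p. In these regions the opposite strand repeats the same similarity, so its score is no chance level. The score of 15 at chr5, the highest of the opposite strands, was such a match. The comparison of strands therefore decides nothing for these regions.

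A second set of sequences was set apart by its stage. Of the 5 regions whose RPM (reads per 1000000 summed cluster reads of the library) had the largest ratio of Adult to e12.5, a pair on chromosome 13 shared the 13 bases GTGTAGCGCAGTC. The stretch GTGTAGCNCAGT, in which N is any base, was therefore searched in all 114573 regions after their values were seen. It lay in 24 of them (0.0209%) on the strand of the cluster and in 0 on the opposite strand, and 8 of the 24 were found in all 5 libraries. Among 425 tRNA genes of RefSeq, 4 held the stretch, and all 4 encode alanine tRNA. The tRNA genes among the regions and the chr13 pair differ at the open base N. Of the 24 regions, 3 lay in tRNA genes, and the others lay elsewhere. The lines below show regions chosen for high reads at P7 and Adult and then a tRNA gene, with the stretch in capitals.
chr13:113599005-113599022, plus strand, antisense to Snx18: gggGTGTAGCGCAGTctc
chr13:55417185-55417202, plus strand, downstream of Slc34a1: ggaGTGTAGCGCAGTcag
chr17:85590518-85590535, plus strand, outside every gene: ggaGTGTAGCACAGTgac
chr4:31929776-31929793, minus strand, outside every gene: ggaGTGTAGCTCAGTagc
chr13:21222587-21222604, plus strand, the alanine tRNA gene n-TAagc16: gggGTGTAGCTCAGTggt
Their reads are given with the changes between stages.

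Intergenic clusters were most frequent before birth. At e12.5 they made up 29.0% of the clusters (60240 of 207816, with a Wilson 95% interval of 28.8 to 29.2). The share was 27.1% at e15.5 (21947 of 80960, 26.8 to 27.4) and 28.3% at e18.5 (21766 of 76844, 28.0 to 28.6). At P7 the share was 18.6% (23242 of 124670, 18.4 to 18.9), and at Adult it was 15.7% (12745 of 81029, 15.48 to 15.98). The 3 embryonic libraries were thus all above the later ones. These intervals cover counting error only, since PCR copies are not independent molecules, and with 1 library per stage there is no test between stages. The share of reads was smaller than the share of clusters in every library, at 10.1%, 11.7%, 10.8%, 7.03% and 5.38% from e12.5 to Adult. The summed cluster reads lay between 13006120 at e18.5 and 44853916 at e12.5.

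Each embryonic table held 2 lists of clusters, while the P7 and Adult tables held 1. The study's methods state a pair of biological replicates for the Ago2 experiments, and its supplement names a second library for e18.5 only. However, neither labels nor headers tie a list to a replicate, so the lists were not used as replicates. The first and the second list gave intergenic shares of 30.4% and 27.6% at e12.5, and of 30.7% and 26.3% at e15.5. At e18.5 they gave 35.2% and 15.47%, so that the second e18.5 list stood at the Adult level. From e12.5 to e18.5, in order of stage, the lists shared 8.62%, 6.30% and 8.83% of the intergenic clusters.

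**Figure D1:**
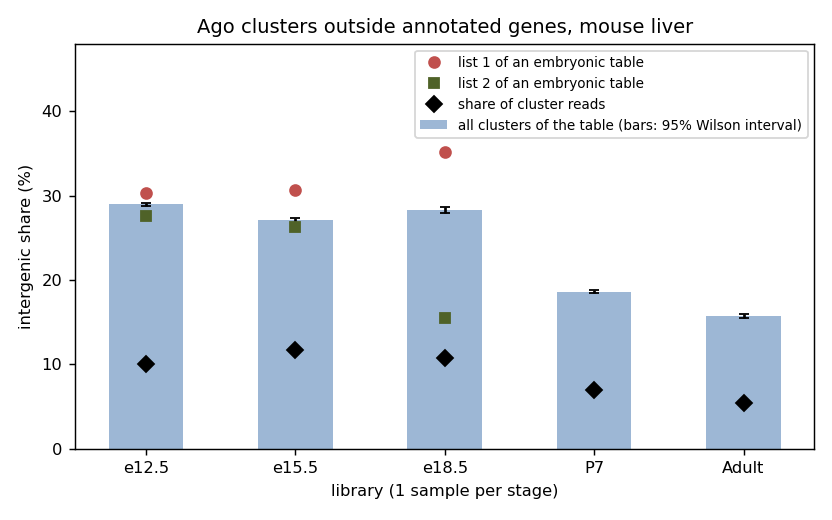
Share of clusters and of cluster reads that were intergenic (vertical axis, percent) in each of the 5 libraries, with Wilson 95% intervals for the clusters and the 2 lists of each embryonic table as separate points. The joined embryonic libraries lie between 27.1% and 29.0% of clusters, above P7 at 18.6% and Adult at 15.7%, and the second e18.5 list lies at 15.47%.

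Few intergenic clusters lay over miRNA genes, and their share of reads depended on how clusters with mixed labels were treated. There were 18, 6, 7, 15 and 15 such clusters from e12.5 to Adult, or 0.0299%, 0.0273%, 0.0322%, 0.0645% and 0.118% of the intergenic clusters. They held 0.756%, 0.202%, 0.181%, 1.16% and 1.28% of the intergenic reads, more than their share of clusters in every library. With only the clusters whose entries were all intergenic, the share of reads was 0.0288%, 0.181%, 0.192%, 0.0577% and 0.0487%, and at Adult it was below the 0.0711% of clusters. They lay over 27 miRNA genes, of which 14 were in RefSeq and 13 were typed as miRNA by GENCODE alone, and 4 of the 27 were found in every library. These were Gm23935, n-TStga1, Gm44456 and n-TSaga9, of which the last 3 matched serine tRNA genes, so they may not be miRNA genes. The largest was Gm23935, typed as miRNA by GENCODE alone, with a region at chr16:11143922-11144306 on the plus strand that held 27366, 2652, 2287, 11258 and 14150 reads. It was read at all stages and was lowest at e15.5 and e18.5. Gm25911, on chromosome 1, followed with 3029, 884, 0, 1016 and 1565 reads, where 0 stands for no listed cluster. The clusters over n-TStga1 and Gm44456 held the same 120, 33, 98 and 43 reads from e15.5 to Adult and matched 1 serine tRNA gene, so reads of such copies cannot be assigned to 1 locus.

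The genes of 2 erythroid miRNAs appeared only as the edge of clusters that the tables label otherwise. At e12.5, the intergenic entries at Mir144 held 27 reads and those at Mir451a held 74, whereas the whole clusters held 5540515 and 1775571 reads. Among the RefSeq genes, Gm51289 on chromosome 12 had 57, 265 and 190 reads at e18.5, P7 and Adult and no listed cluster earlier. Clusters found to overlap a miRNA gene were left out of the results that follow. By the position of their joined region, 1, 3, 3, 1 and 0 of the clusters kept still counted as miRNA gene. These held 25, 1418, 1465, 34 and 0 reads from e12.5 to Adult.

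Intergenic clusters were spread over all chromosomes. Their density was 22.9, 8.33, 8.26, 8.82 and 4.83 clusters per Mb from e12.5 to Adult. Chromosome X had the lowest density in every library, at 16.5, 6.16, 5.98, 5.74 and 3.26 per Mb. The highest was chromosome 19 in every library but e15.5, where it was chromosome 17 with 10.4 per Mb. The highest and the lowest chromosome differed by 1.61-fold to 1.69-fold in the embryonic libraries, by 2.02-fold at P7 and by 2.12-fold at Adult. The plus strand held 48.9% to 49.7% of the clusters.

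Many of the clusters labelled intergenic lay in or across from genes of the RefSeq and GENCODE annotations of GRCm38, the assembly behind mm10. In the order e12.5 to Adult, 47.7%, 46.7%, 48.3%, 44.2% and 42.5% of the clusters lay outside every gene on both strands. A further 26.3% to 30.8% lay antisense to a gene, and 5.91% to 6.59% lay in lncRNA genes. Pseudogenes held 9.09%, 11.4%, 7.40%, 8.67% and 12.8%. Exons of protein-coding genes in these annotations held 4.18%, 4.69%, 4.61%, 7.85% and 7.90%. The share at P7 and Adult was thus above that of each embryonic library. tRNA genes held 0.505%, 0.971%, 0.869%, 0.986% and 1.60%.

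Clusters just downstream of genes were denser than the genomic share, and clusters just upstream were also frequent. Within 5 kb of the 3′ end of a protein-coding gene, on the same strand, lay 4.57%, 4.27%, 4.44%, 6.74% and 6.80% of the clusters outside coding genes, where 2.43% of such genomic bases lie. The densities were thus 1.88, 1.76, 1.83, 2.78 and 2.80 times the genomic share, higher at P7 and Adult than before birth. The tables alone do not tell an unannotated 3′ end from another transcript, and this was not tested.

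Genes with a cluster across or within 5 kb after their end were then counted in lists of liver genes. Of 29 annotated hepatocyte genes, 4 had such a cluster at e12.5 (Afp, Apoa1, Serpinc1, Hpx), 0 at e15.5 and e18.5, 4 at P7 (Alb, Afp, Apoh, Serpina1b) and 2 at Adult (Apoc3, Serpina1b). These encode plasma proteins that hepatocytes secrete. Of 20 erythroid genes, 8 had one at e12.5 (Hba-a1, Hba-a2, Hba-x, Klf1, Epor, Bpgm, Ank1, Slc25a37), and 4, 2, 1 and 0 at the later stages. They include α-globin chains, the transcription factor Klf1 and the erythropoietin receptor. Of 15 imprinted genes, 3, 0, 1, 1 and 0 had one. Over all 23401 coding genes the shares were 8.94%, 3.18%, 3.43%, 4.91% and 2.80%, and no test of the lists was made. The imprinted list also holds noncoding genes such as H19 and Meg3, which this background leaves out. Genes with a cluster inside them were 2, 1, 2, 7 and 6 of the hepatocyte list from e12.5 to Adult. They were 2, 2, 2, 2 and 1 of the erythroid list and 3, 2, 0, 2 and 0 of the imprinted list, with no share over all genes to compare.

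The α-globin genes, which encode a chain of haemoglobin, were looked at further after their values were seen. The region chr11:32284469-32284491 at the end of the last exon of Hba-a1, with the plus-strand sequence aagcctgagtaggaagaagcctg, held 14448, 19323, 8074, 2383 and 234 reads from e12.5 to Adult. It was highest at e15.5 and lowest at Adult. Its entries were 7mer-m8 sites of the miR-103 and miR-107 5p strands, a 7mer-A1 site of miR-155-3p and sites of miR-484, with a conservation score of up to 0.995. The copy at Hba-a2, chr11:32297299-32297305, held 14448, 8710, 4540 and 2383 reads up to P7 and was not listed at Adult. The values of both copies were equal at e12.5 and P7 and differed at the other stages. The genes are near-identical, so the assignment of reads to either copy is uncertain.

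Most intergenic clusters had no similarity to the RNAs searched, whereas a large part of their reads lay in clusters that had. Clusters with no similarity to rRNA, tRNA, miRNA, other small RNA, mitochondrial or coding sequences made up 88.4%, 86.7%, 89.5%, 86.5% and 79.2% of the clusters. They held 63.5%, 59.6%, 71.7%, 77.8% and 42.9% of the reads. Similarity meant an alignment of at least 25 bases at 90% identity or more, or, for mature miRNAs, at least 17 bases with at most 1 mismatch and no gap on the strand of the cluster. The rRNA sequences were those of rRNA genes in the annotation of the chromosomes searched. Large-subunit rRNA and the rest of the rRNA precursor were not among them, so clusters like those counted as having no similarity.

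rRNA-like clusters held 13.4%, 15.8%, 12.8% and 5.77% of the reads from e12.5 to P7 and 39.7% at Adult. The largest rRNA-like region was chr17:39846246-39846942 on the plus strand, in Rn18s-rs5, a copy of the 18S rRNA gene, with 234009, 193075, 123696, 48104 and 384984 reads. Scaled to the summed cluster reads, these were 5217, 11693, 9511, 2916 and 15480 RPM, lowest at P7 and highest at Adult. A region at chr10:82955211-82955362 on the minus strand, which matched 18S rRNA at 95.6% over 181 bases, had 297148, 82794, 24016, 1089 and 120993 reads and was again lowest at P7. A region at chr6:3200786-3201668 on the plus strand varied less, with 20830, 10299, 14951, 7305 and 8244 reads. rRNA is the most abundant RNA of a cell, and how much of these reads was bound by Ago was not tested.

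**Figure D2:**
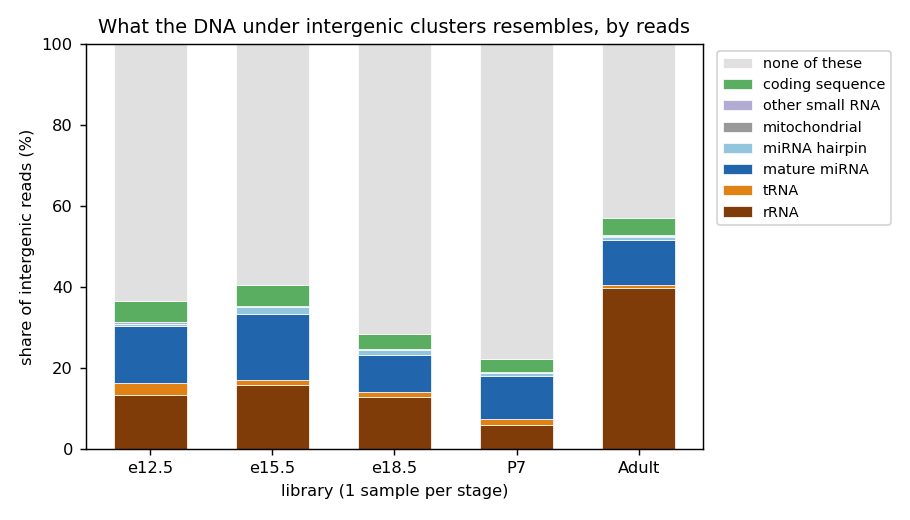
Share of intergenic reads (vertical axis, percent) by similarity of the cluster to other RNAs, as stacked bars for the 5 libraries, without clusters over miRNA genes. rRNA-like clusters hold 39.7% of reads at Adult against 5.77% to 15.8% elsewhere, and clusters like mature miRNAs hold 9.23% to 16.3%.

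Clusters like a mature miRNA, whatever else they resembled, held 14.4%, 16.3%, 9.24%, 10.6% and 11.0% of the reads. In clusters of introns alone the share of reads was 12.1%, 21.2%, 15.7%, 12.8% and 20.9%, higher than in intergenic clusters in every library but e12.5. The same intergenic clusters were 2.83%, 2.86%, 2.56%, 3.69% and 5.93% of the clusters, where the same search on the opposite strand found 0.840%, 0.556%, 0.602%, 0.865% and 0.888%. Similarity was more frequent on the strand of the cluster in every library. The miRNA with most reads in such clusters was miR-142a-3p, with 63 regions that held 480501, 286013, 101973, 65704 and 65013 reads. Of the 6 regions aligned to miR-142a-3p above, only the chr9 region met this stricter rule, and the reads of the other 5 are not in these sums. The chr9 region alone held most of these reads in every library, 448606 of the 480501 at e12.5 and 62444 of the 65013 at Adult. Other miRNAs with many such regions were miR-122-5p with 41 regions, miR-144-3p, an erythroid miRNA, with 26, and miR-378a-3p and miR-194-5p with 25 each. Regions like miR-122-5p held 1309, 898, 3744, 5916 and 5089 reads, and those like miR-144-3p held 4448, 1153, 1210, 228 and 318. In RPM the former were lowest at e12.5 (29.2) and highest at P7 (359), and the latter were highest at e12.5 (99.2) and lowest at Adult (12.8). More regions, 512 and 203, were like miR-574-5p and miR-1187, whose sequences consist largely of TG repeats, but they held at most 7473 and 2536 reads in a library.

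The chr9 region aligned to miR-142a-3p was the intergenic region with most reads at e12.5, e15.5 and P7. It held 448606, 275937, 93805, 61216 and 62444 reads from e12.5 to Adult, or 10001, 16711, 7212, 3711 and 2511 RPM. It was highest at e15.5 and lower at each later stage. The tables list miR-142a-3p itself at 32.2%, 37.1%, 23.9%, 8.88% and 4.34% of the summed miRNA number. The reads of the region were 5.45%, 7.36%, 5.04%, 5.72% and 6.28% of that number, a ratio that moved by less than 1.5-fold while the RPM moved by 6.66-fold. The entries of the region are seed sites of other miRNAs, among them a 7mer-A1 site of miR-466b-3p and 6mer sites of miR-141-3p and miR-200a-3p.

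The ratio of the chr5 and chr12 regions to miR-142a-3p moved by 1.72-fold and 1.64-fold. The chr5 region held 119316, 39159, 20791, 19224 and 15496 reads, which were 1.45%, 1.04%, 1.12%, 1.80% and 1.56% of the number of the miRNA. The chr12 region held 104497, 36691, 18630, 17120 and 13866 reads, which were 1.27%, 0.978%, 1.001%, 1.60% and 1.40%. For the regions on chr7 and chr4 the ratio moved by 8.14-fold and by 699.7-fold. That on chr7 went from 0.674% and 0.8004% at e12.5 and e15.5 to 0.316% at P7 and 0.0983% at Adult, with 55483, 30022, 9482, 3382 and 977 reads. That on chr4 held 62771, 39622, 15226, 2291 and 15 reads, and its share of the number went from 1.06% at e15.5 to 0.00151% at Adult. The ratio of the chr17 region moved by 101-fold, from 0.0511% at e15.5 to 0.000503% at Adult. Whether the reads came from these loci or from the miRNA was not tested.

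**Figure D3:**
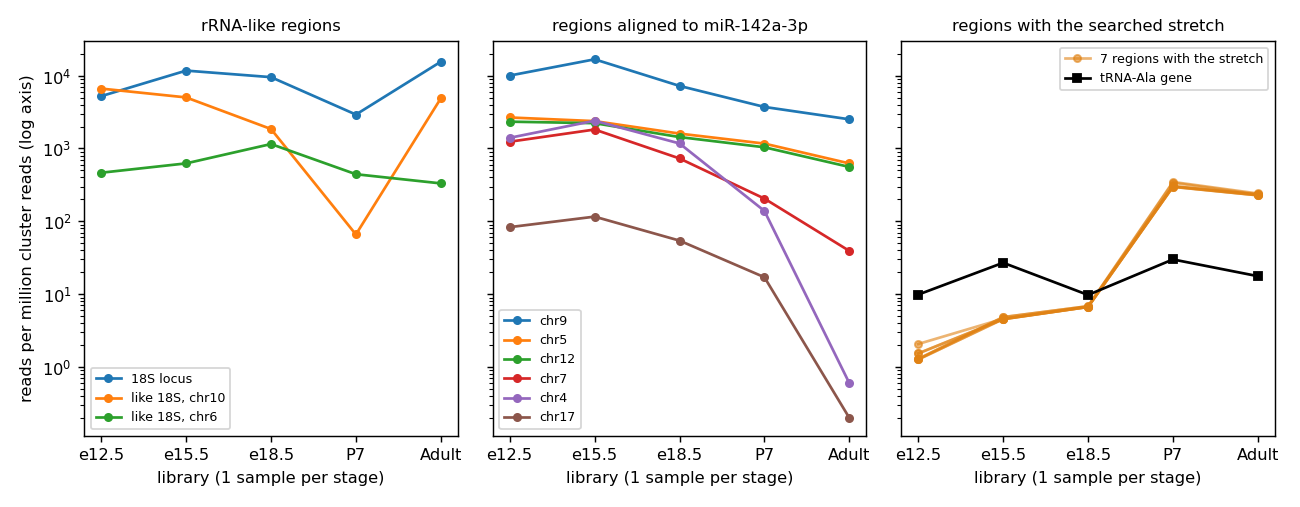
RPM (vertical axis, log scale) of named intergenic regions across the 5 libraries, 1 line per region, for 3 rRNA-like regions, 6 regions aligned to miR-142a-3p, and 7 regions with the searched stretch, chosen for their reads at P7 and Adult, beside an alanine tRNA gene. All 6 regions aligned to miR-142a-3p run downward from e15.5 to Adult, that on chr9 from 16711 to 2511. The tRNA gene lies between 9.76 and 30.01 RPM.

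Among the other regions found in all libraries, the region at chr3:5860340-5860823 resembled the miRNA gene Mir6240, and it held 79423, 27260, 12742, 18953 and 37769 reads. The region at chr11:109011655-109012099, antisense to Gm36876 and with no similarity found, held 43265, 10641, 17428, 15242 and 16027 reads. The chr8 region aligned to miR-16-5p held 9013, 1962, 11919, 7339 and 13616 reads. It was lowest at e15.5 and highest, in RPM, at e18.5. Its reads were 1.012%, 0.611%, 1.65%, 1.74% and 0.423% of the number of miR-16-5p, so no fixed ratio held.

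The largest ratios of Adult to e12.5 were at short regions with few reads before birth. The chr12 region aligned to let-7b-5p held 24 reads at e12.5, none listed at e15.5 and e18.5, 1244 at P7 and 6191 at Adult, a 465-fold difference in RPM. The chr5 region aligned to let-7b-5p held 6, 121 and 795 reads at e12.5, P7 and Adult, a 239-fold difference. The number of let-7b-5p in the tables went from 0.0489% at e12.5 through 1.51% at P7 to 3.00% at Adult. A region at chr8:34236528-34236539 like miR-122-5p held 12, 47, 49, 218 and 1726 reads, a 259-fold difference.

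The chr13 pair with the stretch GTGTAGCNCAGT came next, with differences of 186-fold and 184-fold. The region antisense to Snx18 held 58, 80, 89, 5722 and 5991 reads, and the one downstream of Slc34a1 held 57, 76, 88, 5582 and 5827. Of the 24 regions with the stretch, 7 had at least 1000 reads at P7 and Adult, and the step up of these 7 is a description, since they were chosen by their reads at those stages. Before birth their reads ran from 57 to 93, from 75 to 80 and from 87 to 89, in order of stage. At P7 they ran from 4906 to 5722, and at Adult from 5658 to 5991. How loci on different chromosomes came to have near-equal reads was not tested. The tRNA gene n-TAagc16 held 443, 446, 127, 495 and 440 reads, or 9.88, 27.0, 9.76, 30.01 and 17.7 RPM. Of the other tRNA genes, n-TAagc17 held 153, 100 and 20 reads before birth and n-TAagc18 held 218 and 100 at e12.5 and e15.5, with no cluster listed later. No other region with the stretch held more than 33 reads at any stage. All 24 regions held 0.0303%, 0.0615%, 0.0544%, 3.20% and 3.10% of the intergenic reads. The step fell between e18.5 and P7, where the antibodies also changed. In the chr13 pair the stretch carries a 6mer site of miR-221-3p and miR-222-3p, miRNAs of endothelial and blood cells.

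The smallest ratios of Adult to e12.5 were at the chr4 region aligned to miR-142a-3p, described above, and at 4 others. A region at chrX:131715665-131715673, whose sequence aligned to miR-144-3p with 17 identical bases but aligned better on the opposite strand, held 42624, 11881, 6671, 352 and 36 reads. A region in the histidine tRNA gene n-THgtg1, chr3:96463941-96463976, held 20882, 2974, 142, 567 and 22 reads. The chr17 region aligned to miR-142a-3p held 3732, 1915, 707, 282 and 5 reads, and a region at chr16:63420596-63420608 with no clear similarity held 9404, 3669, 3110, 150 and 14. All 5 were lowest at Adult. In RPM, the chr4 and chr17 regions were highest at e15.5 (2399.5 and 116), the chr16 region at e18.5 (239), and the chrX and chr3 regions at e12.5 (950.3 and 466).

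Beyond the named regions, 2668 intergenic regions were found at both e12.5 and Adult. Of these, 659 (24.7%) were at least 2-fold higher at Adult in RPM and 1072 (40.2%) at least 2-fold lower. Over all 18813 regions found at both stages, 30.8% were higher and 32.3% lower. With the library totals of the study as the scale, 29.5% of the intergenic regions were higher and 34.5% lower, against 36.4% and 27.2% of all regions, so the order of the latter turned. The median ratio of Adult to e12.5 was 0.721 for intergenic regions and 0.992 for all regions. With the first e12.5 list alone, 148 of 1391 regions were higher and 1011 lower, so the size of the imbalance depended on the list. These are descriptions of 1 library against another.

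Most intergenic regions were found at 1 stage. Of the 114573 regions, 99645 (87.0%) were in 1 library, 9036 in 2, 3170 in 3, 1662 in 4 and 1060 (0.925%) in all 5. Over regions of every kind, 79.9% were in 1 library and 1.32% in all 5. The 1060 recurrent regions held 56.5%, 62.8%, 52.5%, 52.1% and 77.8% of the intergenic reads from e12.5 to Adult. Reads were concentrated further still: the 10 largest clusters held 32.9%, 39.3%, 24.6%, 25.9% and 53.2%. The median cluster had 14, 16, 15, 10 and 11 reads, where the lowest value in the tables is 5, so that a region listed at 1 stage only can still have reads below that limit at another.

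The seed sites in intergenic clusters had similar types at all stages. Sites with 6 matched bases (6mer) made up 52.5%, 52.3%, 52.2%, 52.0% and 52.6% of the sites. The share was 0.627 percentage points below that of clusters in introns alone (SD 0.855 over 5 libraries, two-sided exact permutation p = 0.125) and 0.122 points below that of 3′ UTR clusters (SD 0.597, two-sided exact permutation p = 0.6875). With only the clusters outside every gene these differences were -1.04 points (two-sided exact permutation p = 0.0625) and -0.536 points. The differences over all intergenic clusters are 2 of 8 comparisons of intergenic clusters with the other classes, paired within libraries, and the smallest two-sided p that 5 libraries allow is 0.0625. After Benjamini-Hochberg adjustment over the 8 no value lay under 0.125.

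Intergenic sites were more conserved than intronic sites and less than 3′ UTR sites in all 5 libraries. Their mean conservation score, which runs from 0 to 1, was 0.259, 0.280, 0.235, 0.241 and 0.275 from e12.5 to Adult. In introns it was 0.141, 0.163, 0.147, 0.130 and 0.133, and in 3′ UTRs 0.453, 0.506, 0.467, 0.421 and 0.442, so the 3 classes did not overlap. The mean difference was 0.115 from introns (SD 0.0196, n = 5 libraries, two-sided exact permutation p = 0.0625, adjusted p = 0.125). From 3′ UTRs it was -0.200 (SD 0.0284, n = 5 libraries, two-sided exact permutation p = 0.0625, adjusted p = 0.125). With only the clusters outside every gene on both strands, the difference was -0.00071 from introns and -0.316 from 3′ UTRs.

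By position, sites in pseudogenes had the highest mean conservation score, between 0.727 and 0.775 across the libraries. Pseudogenes are copies of genes, mostly without function. Sites in coding exons of these annotations lay between 0.309 and 0.356, and those within 5 kb downstream of a gene between 0.188 and 0.320. Antisense sites lay between 0.166 and 0.174, and sites outside every gene between 0.132 and 0.154. The order of pseudogenes, coding exons and sites outside every gene was the same in all 5 libraries.

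**Figure D4:**
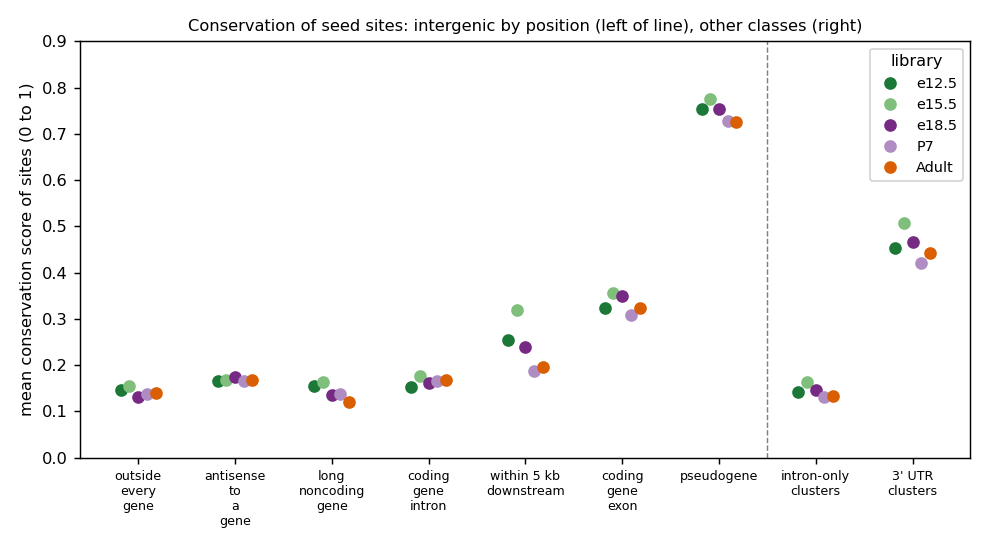
Mean conservation score of seed sites (vertical axis, 0 to 1), 1 point per library. Left of the dashed line are intergenic clusters by position against RefSeq and GENCODE genes, right of it intron-only and 3′ UTR clusters. Pseudogene sites lie at 0.727 to 0.775, above those in 3′ UTRs, while sites outside every gene lie at 0.132 to 0.154, beside 0.130 to 0.163 in introns.

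Intergenic clusters had fewer reads than 3′ UTR clusters. Their median was 13.2 reads on average over the libraries, against 27.0 in 3′ UTRs (lower in 5 of 5 libraries, two-sided exact permutation p = 0.0625, adjusted p = 0.125) and 18.2 in introns (lower in 4 of 5 and equal in the other, two-sided exact permutation p = 0.125, adjusted p = 0.167). Repeat sequence, marked in lower case in the reference, covered 17.8% of the bases around intergenic clusters and 8.70% around 3′ UTR clusters, a difference of 9.07 points (SD 1.011, n = 5 libraries, two-sided exact permutation p = 0.0625, adjusted p = 0.125). It exceeded the share in introns by 0.966 points, which was within the spread (SD 1.44, n = 5 libraries, two-sided exact permutation p = 0.1875, adjusted p = 0.214). With only the clusters outside every gene it exceeded that share by 4.73 points (two-sided exact permutation p = 0.0625). The 20 bases at the middle of a cluster occurred once in the genome for 72.3% to 79.7% of intergenic clusters, 83.6% to 88.0% of intronic ones and 86.8% to 90.8% of those in 3′ UTRs.

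The miRNAs whose seeds fit intergenic clusters differed between stages. A seed family is the set of miRNAs with the same bases 2 to 8, and 252 families had sites in at least 50 intergenic clusters at e12.5 and at Adult. The share of clusters that held a site was at least 1.5-fold higher at Adult for 68 families (27.0%) and at least 1.5-fold lower for 6 (2.38%). Over all clusters of the tables, 17.8% of 388 families were higher and 2.32% lower, and 39 of the 68 were among those higher over all clusters. The minimum of 50 is a larger share of the 12730 intergenic clusters at Adult than of the 60222 at e12.5. Families rare at e12.5 were thus compared only if higher at Adult, so the 68 and 6 cannot be read as a direction of change. Over all clusters, 81029 and 207816, the libraries differ less in number, so the 27.0% and 17.8% are not like for like. With the first e12.5 list alone, 35 of 212 families were higher in intergenic clusters and 14 lower, so the split depended on the list. The median ratio was 1.23 in intergenic clusters and 1.12 over all.

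The largest ratio was that of miR-122-5p, the main hepatocyte miRNA. Its sites were in 0.463%, 0.693%, 1.38%, 3.33% and 3.40% of the intergenic clusters from e12.5 to Adult, a ratio of 7.34 where all clusters gave 5.17. Next was miR-3068-5p, with 0.603% at e12.5 and 3.85% at Adult. The seeds of both overlap, and at Adult 245 clusters held both sites, of 433 with a site of miR-122-5p and 490 with one of miR-3068-5p. The let-7 family went from 0.264%, 0.374% and 0.414% before birth to 1.10% at P7 and 1.45% at Adult, a ratio of 5.50. Every cluster with a let-7j site also had a let-7 site, and of the clusters of miR-1193-5p and miR-379-5p at Adult, 53.6% did. The 5 ratios are therefore not independent of each other. The number that the tables list for miR-122-5p itself went from 1.44% of the summed miRNA number at e12.5 to 11.2% at Adult.

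The sites of abundant miRNAs did not all follow the listed number of the miRNA. Sites of miR-451a, an erythroid miRNA, were in 0.455%, 0.743%, 0.280%, 0.189% and 0.118% of the intergenic clusters, while its number went from 6.98% of the summed miRNA number at e12.5 to 0.724% at Adult. Both were lower at P7 and Adult than in each embryonic library. Sites of miR-144-3p were in 1.05%, 1.92%, 1.14%, 1.18% and 1.11% of the clusters, although its number went from 21.7% to 1.54%. Sites of miR-142a-3p were in 0.536%, 0.506%, 0.556%, 0.521% and 0.424%, although its number went from 32.2% to 4.34%. For both, the share of clusters moved far less than the number. Of the liver miRNAs, miR-194-5p had sites in 0.337%, 0.510%, 0.437%, 0.560% and 0.903% of the clusters, highest at Adult. The share of intergenic clusters with a site was below that over all clusters of the library for all 12 miRNAs named for their abundance, in all 5 libraries. This was not particular to abundant miRNAs. At e12.5 and Adult it also held for the families with the largest and smallest ratios, such as miR-361-3p at e12.5 (1.36% against 1.48%). Intergenic clusters held fewer sites each: at e12.5 they were 29.0% of clusters and held 20.2% of entries.

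The smallest ratios were those of miR-361-3p (0.463), miR-342-3p (0.542), miR-132-3p and miR-212-3p (0.560), miR-130a-5p (0.608) and miR-8114 (0.636). Sites of miR-361-3p were in 1.36% of the intergenic clusters at e12.5 and 0.628% at Adult. Those of miR-130a-5p were in 1.12% at e12.5 and in 0 of the clusters at e18.5, a gap that no other stage shows. Not every miRNA is listed in every library: miR-1224-5p, for example, has a number at e12.5 only. A miRNA that was not listed at e18.5 cannot be told here from one without sites.

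**Figure D5:**
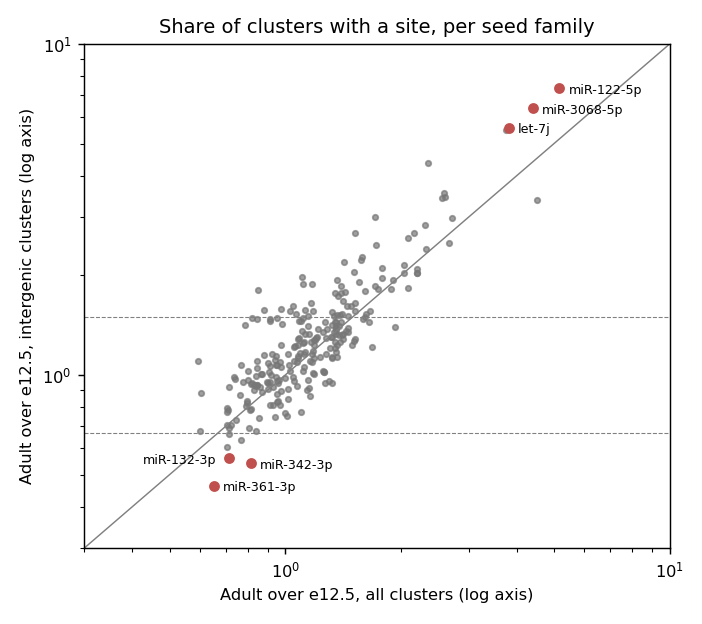
Ratio of Adult to e12.5 in the share of clusters that hold a site of a seed family, over all clusters (horizontal log axis) and over intergenic clusters (vertical log axis), 1 point per family, with equal ratios on the solid line, 1.5-fold changes in intergenic clusters on the dashed lines and some of the largest and smallest ratios in red. miR-122-5p stands at 5.17 over all clusters and 7.34 over intergenic clusters, and miR-361-3p has the lowest ratio over intergenic clusters at 0.463.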

How the data were processed

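Reads were trimmed by the authors with the FASTX-Toolkit and aligned with Bowtie to the mouse genome and to miRNA precursors of miRBase. The submitters' processing notes name Bowtie and the builds mm9 and mm10. Versions of these tools are not given in the sources used here. They grouped overlapping reads into clusters, annotated these with UCSC refGene and Ensembl, and listed seed matches of mouse miRNAs. In the deposited tables the reads of a cluster are a signal, its highest read number, not scaled to library size and never under 5. It carries another name at e12.5 than at the other stages, and its exact definition is not given. The deposited conservation score of a site runs from 0 to 1, by a method not stated, and the deposited free energy, also a score, was not used.

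Coordinates were read as 0-based mm10, printed 1-based, and found to fit GRCm38. Clusters of the 2 lists of an embryonic table, and regions between libraries, were joined where they overlapped by at least 1 base on the same strand. Cluster reads were summed over lists and scaled to 1000000 summed cluster reads of the library (RPM). Clusters over miRNA genes were those overlapping, on the same strand, a gene that RefSeq or GENCODE types as miRNA. Similarity to other RNAs was searched with blastn 2.17.0 in the cluster and 20 bases to either side, with at least 25 bases at 90% identity, and mature miRNAs as stretches of at least 17 bases with at most 1 mismatch. Intergenic clusters were compared with intron-only and 3′ UTR clusters off miRNA genes by exact permutation of the sign of the paired difference over 5 libraries. Seed families with at least 50 clusters in both libraries were compared at 1.5-fold and regions at 2-fold, with no test. The steps were tested on simulated data with known answers and passed 11 of 11 checks. Python 3.11.15, numpy 2.4.6, pandas 2.3.3, scipy 1.17.1, pysam 0.24.0 and numba 0.67.0 were used.

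Regions were named by rule: the 10 with the highest geometric mean of RPM among those in all 5 libraries, the 5 with the largest and the 5 with the smallest ratio of Adult to e12.5 among those with at least 50 reads in either, the region with most reads in each library, and the miRNA genes with most reads under intergenic clusters. The 12 miRNAs are those that the study draws as most abundant, and the 5 seed families with the largest and the 5 with the smallest ratio were named. Regions, lists and miRNAs were chosen with earlier results of these data known, and the search for the stretch GTGTAGCNCAGT and the α-globin regions after their values were seen. No column of other samples was present.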

Additional observations from a re-analysis of the deposited data

How the results depend on the processing

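No pairing of samples across stages was possible because each stage has 1 library and no replicate number pairs them. Classes of clusters were compared as pairs within each library. In all 18 alternatives were run, each for the values it bears on. Of 237 values of single libraries, 108 moved by less than their error and 129 by more, and 2 of 24 differences between classes changed sign. Values are medians over the libraries unless stated. The median intergenic share of 27.11% became 23.05% with clusters of at least 10 reads, 30.36% with the first list alone, 18.64% with the second list alone, 19.89% by entries and 24.79% with sites of at least 7 matched bases. Without clusters like rRNA, tRNA or miRNA, an alternative chosen after seeing the data, the share off miRNA genes went from 27.29% to 26.42%. The median share over miRNA genes of 0.03216% became 0.07435% with the first list and 0.2619% within 1000 bases of a hairpin, and that of reads, 0.7561%, became 0.7797% with at least 10 reads, 1.163% and 0.3279% with the first and second list, 0.05772% with clusters wholly intergenic and 0.9253% within 1000 bases. The share within 5 kb downstream, here of all intergenic clusters, 4.269%, became 4.616% with at least 10 reads, 4.005% and 5.174% with the first and second list, 1.265% within 1 kb and 11.6% within 20 kb. The median of 14 reads became 22 with at least 10 reads, 18 and 11 with the first and second list and 13 outside every gene. The mean conservation score of 0.2586 became 0.2805 with at least 10 reads, 0.2656 and 0.2738 with the first and second list, 0.2624 with at least 7 matched bases and 0.1401 outside every gene. Regions in all 5 libraries went from 1060 to 415 outside every gene, and those in 1 library from 99645 to 48630, or to 63969 with at least 10 reads. The difference in conservation from introns became -0.0007104 outside every gene, and the difference in 6mer share from 3′ UTRs became 0.1393 with at least 10 reads. The cause of these changes was not tested. The 74 seed families that changed became 49 with the first list (35 higher and 14 lower, against 68 and 6), 37 with at least 7 matched bases, 29 outside every gene and 29 at 2-fold. Fewer families were compared in the first 3 of these. The 1731 regions that changed became 985 at 4-fold, and with the library totals of the study as the scale, 786 were higher and 921 lower. The median share of intergenic reads in clusters like a mature miRNA, whatever else they resemble, 10.96%, became 14.96% with 16 bases and 1 mismatch and 14.79% with 18 bases and 2 mismatches, both chosen after seeing the data. Clusters under 5 reads are not listed, which limits what can be said of a region that is missing at a stage.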
